A study of Homo sapiens with 2 samples.

Results

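The genes of oxidative phosphorylation were compared between parental and revertant MDA-MB-231 cells, in both of the genomes that encode them. Members were taken by symbol: the subunit genes of complex I (NDUF), complex II (SDH), complex III (UQCR, CYC1 and MT-CYB), complex IV (COX) and complex V (ATP5), with the mitochondrially encoded subunits. The patterns matched 103 names, of which 3 antisense or divergent transcripts were left out. This left 100 members of 36601 listed genes, with 87 in nuclear DNA and 13 in mitochondrial DNA (mtDNA). The members were divided into complexes by symbol, so that NDUFA4, now placed in complex IV, was counted with complex I. NDUFAB1, a complex I subunit gene, did not match the patterns and is not in the complex I sums.

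MDA-MB-231 is a human triple-negative breast cancer line of mesenchymal appearance. The D0 library held parental cells kept in medium with 100 µM methionine. The D21 library held revertant cells that had spent 21 days in medium lacking methionine, in which 100 µM homocysteine and 1.5 µM vitamin B12 (cyanocobalamin) were supplied instead. The labels give custom RPMI with dialyzed serum for both samples, while the methods name dialyzed serum for the custom medium only. The labels of the D0 sample give no vitamin B12 level. The revertant cells were a population that had grown out in the homocysteine medium, so selection of cells and change within cells cannot be told apart. With 1 library per group there is no replicate error. No test was run, and every interval below covers counting error only.

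Oxidative phosphorylation passes electrons from NADH and succinate through complexes I to IV to oxygen, and the proton gradient this builds drives ATP synthesis by complex V. Complex II is the only complex built from nuclear genes alone. All the others need subunits of both genomes, and mtDNA is transcribed as long polycistronic RNAs that are cut at the tRNAs between the genes. A pair of these mRNAs is bicistronic, MT-ATP8 with MT-ATP6 and MT-ND4L with MT-ND4, and the second reading frame of each begins inside the first.

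The first genes of these pairs are shown because they had among the lowest D21/D0 ratios of the mtDNA genes, and the capitals mark the stretch that each shares with its partner. In GRCh38 MT-ATP8 lies at chrM:8366-8572 on the + strand and is 207 nt long, and its last 46 nt belong also to MT-ATP6 (chrM:8527-9207). MT-ND4L lies at chrM:10470-10766 on the + strand and is 297 nt long, and its last 7 nt belong also to MT-ND4 (chrM:10760-12137). Reads within the shared stretches cannot be given to a single gene.
MT-ATP8: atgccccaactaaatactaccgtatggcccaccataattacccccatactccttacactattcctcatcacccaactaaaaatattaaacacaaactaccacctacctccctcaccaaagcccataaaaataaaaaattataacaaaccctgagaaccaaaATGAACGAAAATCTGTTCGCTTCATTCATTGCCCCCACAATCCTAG
MT-ND4L: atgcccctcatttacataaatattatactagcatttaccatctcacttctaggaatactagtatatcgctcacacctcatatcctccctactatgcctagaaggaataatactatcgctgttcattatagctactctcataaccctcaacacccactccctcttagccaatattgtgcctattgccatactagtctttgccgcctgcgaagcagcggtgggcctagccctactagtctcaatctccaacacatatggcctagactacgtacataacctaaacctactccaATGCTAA

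Transcripts were counted as unique molecular identifiers (UMIs), so that a count stands for a captured molecule, and a level is given per 1000000 UMIs of all cells of a library (CPM). Cells were 7492 at D0 and 12487 at D21, with 183098116 and 182839048 UMIs and a median of 18908 and 12022 UMIs per cell. A count of 3 UMIs, the limit that a count of 0 allows, was 0.0164 CPM in each library. Only 21 cell barcodes occurred in both libraries. Markers of the line were high in both libraries, with VIM at 4157 and 2876 CPM, CD44 at 312 and 415 CPM and KRT18 at 858 and 885 CPM. The steroid receptors ESR1 and PGR, the leukocyte gene PTPRC and the hepatocyte gene ALB lay below 0.5 CPM in each library, the fibroblast gene COL1A1 at 1.05 and 0.525 CPM and EPCAM at 9.46 and 10.1 CPM. A level is a share of all RNA captured, so less of these transcripts and more of all others cannot be told apart.

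The mtDNA-encoded mRNAs together took a larger share of the RNA of D21 cells, and the nuclear-encoded mRNAs a slightly smaller share. The 13 mtDNA genes added up to 58143 CPM in the D0 library and 65198 CPM in the D21 library, a D21/D0 ratio of 1.12 (95% interval 1.12 to 1.12). The 87 nuclear genes summed to 25614 and 24460 CPM, a ratio of 0.955 (0.954 to 0.956). A gene was called measured with at least 20 CPM in either library, which 78 nuclear and all 13 mtDNA members reached. Of these, 31 nuclear members had a ratio above 1 and 47 a ratio below 1, against 8 and 5 of the mtDNA members. Over all 6867 measured genes 49.4% had a ratio above 1. A level at least 25% higher at D21 was found for 2 nuclear and 3 mtDNA members (6.09% of all measured genes), and a level at least 20% lower for 8 nuclear members and 1 mtDNA member (12.7% of all). The median log2 ratio was -0.06 for nuclear and 0.11 for mtDNA members, beside -0.00298 for all measured genes.

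The mtDNA members differed widely among themselves. MT-CYB, the only complex III subunit of this genome, had the highest ratio and went from 4433 CPM at D0 to 6035 CPM at D21, a ratio of 1.36 (1.36 to 1.37). MT-ND4, a proton-pumping subunit of complex I, went from 4292 to 5643 CPM, a ratio of 1.31 (1.31 to 1.32). MT-ATP6, which forms the proton channel of complex V with the c ring, went from 7818 to 9834 CPM, a ratio of 1.26 (1.26 to 1.26). These were the mtDNA genes at least 25% higher at D21 over all cells. In cells of 10000 to 20000 UMIs the log2 ratio was 0.38 for MT-CYB, 0.53 for MT-ND4 and 0.18 for MT-ATP6. The ratio of MT-ATP6 in the deepest quartile of cells by UMIs was 1.21, and that of MT-ND4 was 1.22. Over all cells the mtDNA-encoded subunits of complex IV differed less than MT-CYB, MT-ND4 and MT-ATP6. MT-CO1 lay at 6102 and 6607 CPM, MT-CO2 at 11538 and 11920 CPM and MT-CO3 at 8534 and 9952 CPM. Their ratios were 1.08, 1.03 and 1.17. The complex I subunits MT-ND1 (2432 and 2975 CPM) and MT-ND2 (2845 and 3275 CPM) were also higher at D21, with ratios of 1.22 and 1.15. In cells of 10000 to 20000 UMIs their log2 ratios were 0.42 and 0.35, both above that of MT-ATP6.

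The other 5 mtDNA members were lower at D21. MT-ATP8, a small membrane subunit of complex V, went from 451 CPM (82641 UMIs) to 218 CPM (39832 UMIs), a ratio of 0.483 (0.477 to 0.488) and the lowest of all 91 measured members. MT-ND4L went from 440 to 355 CPM, a ratio of 0.808 (0.80 to 0.817). MT-ND6, the only mRNA read from the other strand, went from 148 to 121 CPM, a ratio of 0.814 (0.80 to 0.829). MT-ND3 at 8046 and 7288 CPM and MT-ND5 at 1064 and 974 CPM had ratios of 0.906 and 0.915. The complex I genes of mtDNA thus lay on both sides of 1, 3 above and 4 below, and summed to 19267 and 20632 CPM (ratio 1.07). From the shallowest to the deepest quartile of cells by UMIs the ratio of this sum was 1.19, 1.13, 1.10 and 1.00. In cells of 10000 to 20000 UMIs its log2 ratio was 0.15. The mtDNA genes of complex IV summed to 26174 and 28479 CPM (1.09), and those of complex V to 8270 and 10052 CPM (1.22).

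**Figure D1:**
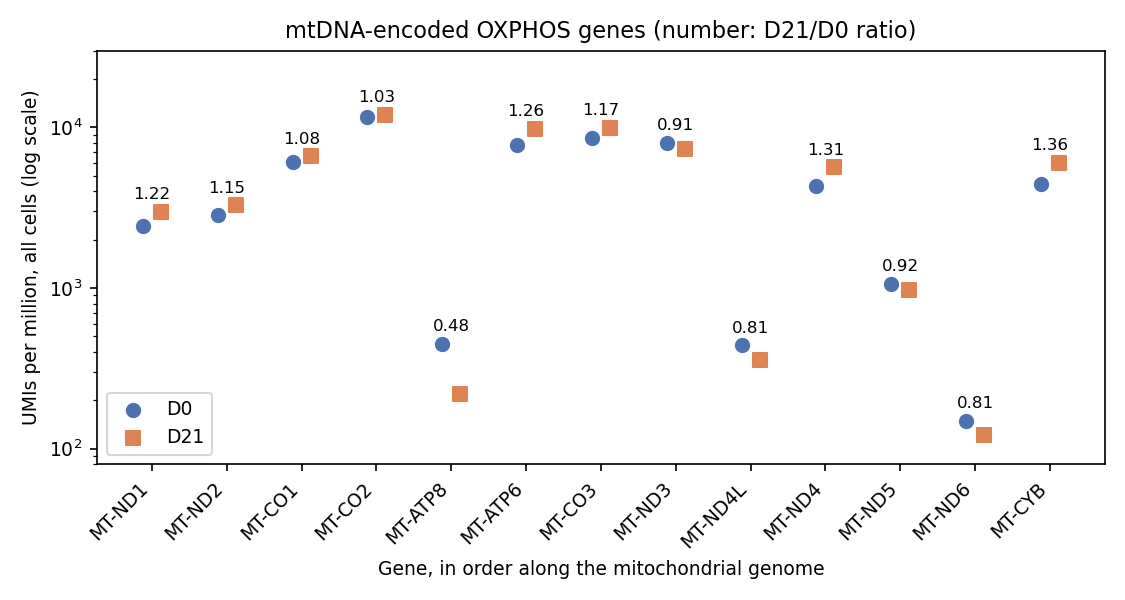
CPM over all cells (log scale) of the 13 mtDNA-encoded genes in the D0 library (blue circles) and the D21 library (orange squares), in gene order, with the D21/D0 ratio above each pair. MT-ATP8 stands apart at 0.48, whereas its partner MT-ATP6 lies at 1.26 and MT-CYB at 1.36.

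The genes of each bicistronic pair thus lay on opposite sides of 1, although they share an mRNA. The 3′ kit counts transcripts near their ends, so UMIs of the first reading frame are no separate measure of an mRNA level. For each 100 UMIs of MT-ATP6 there were 5.77 UMIs of MT-ATP8 at D0 and 2.22 at D21, with intervals of 5.73 to 5.81 and 2.19 to 2.24. MT-ND4L gave 10.2 UMIs for each 100 of MT-ND4 at D0 and 6.30 at D21. The barcodes with 1 to 100 UMIs, which are mostly empty droplets and hold free RNA, gave 4.73 and 2.20 UMIs for the first pair and 9.31 and 6.14 for the second. The lower proportion at D21 was therefore present outside the cells too. It was present in every quartile of cells by UMIs, from 6.07 and 2.65 MT-ATP8 UMIs in the shallowest quartile to 5.05 and 1.84 in the deepest. The 3 mtDNA genes under 500 nt, MT-ATP8, MT-ND4L and MT-ND3, all lay below 1. Across the 13 genes, which share a library and are no replicates, the log2 ratio and the log2 length had a Pearson r of 0.73 and a Spearman rho of 0.60. The part that gene length has in the ratios was not tested.

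In the nuclear genome the sum of complex V was lower at D21, and that of complex I was near 1 on a side that depended on its members. The 38 nuclear complex I genes summed to 8622 and 8697 CPM (ratio 1.01, 1.01 to 1.01), and 20 of the 37 measured were above 1. The 18 complex V genes summed to 8117 and 7156 CPM (0.882, 0.880 to 0.884), and 4 of 17 measured were above 1. Complex II lay at 359 and 331 CPM (0.922), complex III at 3063 and 2911 CPM (0.950) and complex IV at 5454 and 5365 CPM (0.984). Measured genes above 1 were 0 of 4, 2 of 9 and 5 of 11 in these complexes. With NDUFA4 moved to complex IV, complex I lay at 8097 and 8058 CPM (0.995, 0.993 to 0.997) and complex IV at 5979 and 6004 CPM (1.00, 1.00 to 1.01), so both turned. In cells of 10000 to 20000 UMIs complex I had a log2 ratio of -0.027.

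**Figure D2:**
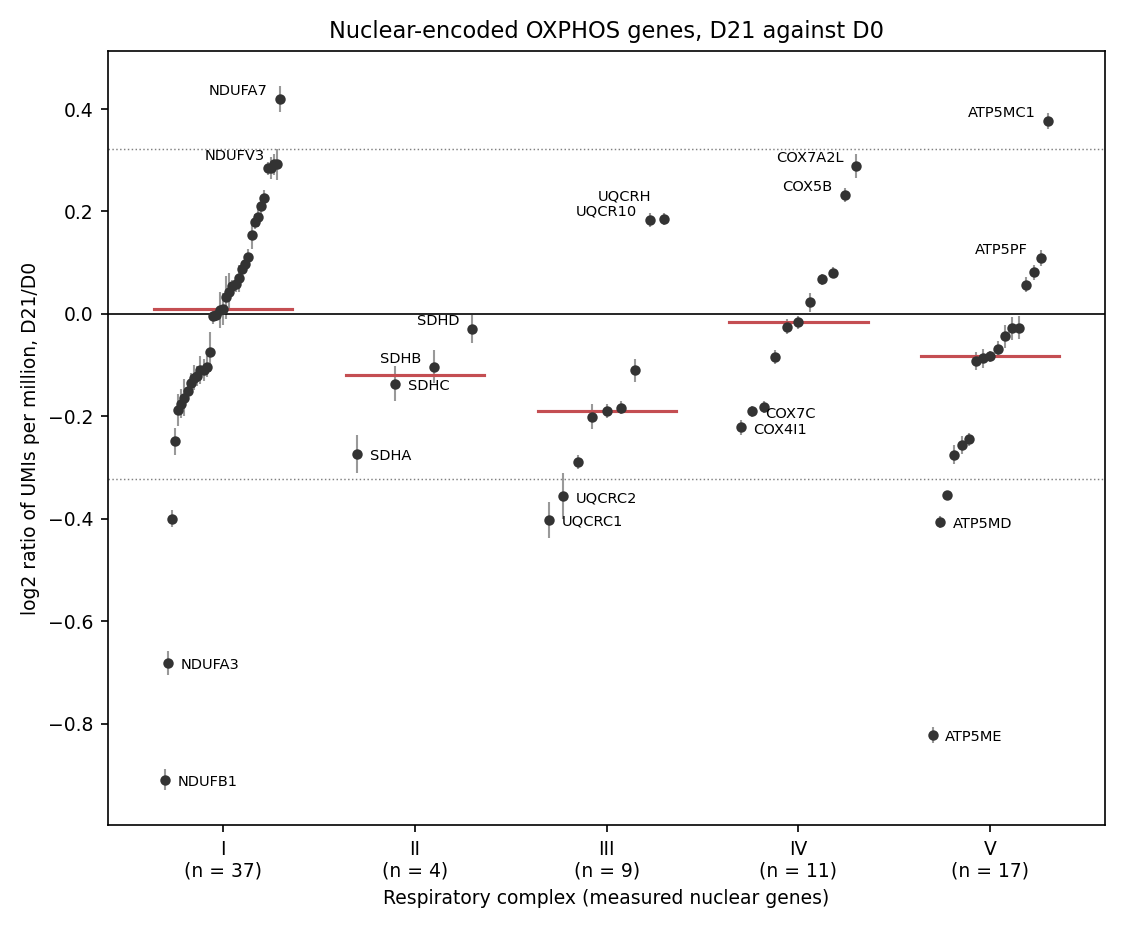
Log2 ratio of CPM at D21 over D0 for each of the 78 measured nuclear members, grouped by complex and sorted within it, with 95% counting intervals (grey bars), the median of each complex (red lines) and the levels 25% above and 20% below D0 (dotted). NDUFB1, ATP5ME and NDUFA3 lie far below the rest, and NDUFA7 and ATP5MC1 lie above the upper dotted line.

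Complex I takes electrons from NADH, and its extremes were all accessory subunits, which surround the catalytic core. NDUFB1 (chr14:92116122-92121917) went from 309 CPM at D0 to 164 CPM at D21, a ratio of 0.532 (0.525 to 0.540). NDUFA3 (chr19:54102728-54109257) went from 211 to 132 CPM, a ratio of 0.623 (0.613 to 0.633). NDUFA1 (chrX:119871487-119876662) went from 378 to 287 CPM, a ratio of 0.758 (0.750 to 0.767). At the other end, NDUFA7 (chr19:8308768-8321396) went from 114 to 153 CPM, a ratio of 1.34 (1.31 to 1.36) and the highest of the nuclear members. NDUFV3 (86.8 and 106 CPM) and NDUFB3 (179 and 219 CPM) both had a ratio of 1.22. The subunits of the NADH-oxidizing module together lay at 1.06, with 5 of 8 above 1. Those of the module that passes electrons to ubiquinone lay at 0.977, with 2 of 5 above 1. NDUFA4 stood at 525 and 639 CPM (1.22), and its hypoxia-linked paralog NDUFA4L2 at 0.251 and 0.191 CPM, with intervals of the ratio from 0.476 to 1.21.

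All 4 genes of complex II, which also serves the TCA cycle as succinate dehydrogenase, lay below 1. SDHA, the flavoprotein that oxidizes succinate, went from 69.7 to 57.6 CPM (0.827, 0.806 to 0.849). The membrane anchor SDHC (80.4 and 73.1 CPM) and the iron-sulfur subunit SDHB (90.1 and 83.8 CPM) had ratios of 0.910 and 0.931. SDHD, the other anchor, went from 119 to 116 CPM (0.980, 0.961 to 0.998), and in cells of 10000 to 20000 UMIs its log2 ratio was 0.0322.

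In complex III the large core proteins UQCRC1 and UQCRC2 had the lowest ratios. UQCRC1 went from 82.2 to 62.2 CPM (0.757, 0.739 to 0.776) and UQCRC2 from 49.6 to 38.8 CPM (0.782, 0.758 to 0.806). UQCRQ, a small accessory subunit, followed with 542 and 443 CPM (0.819). The electron-carrying subunits were below 1 too, with CYC1 (cytochrome c1) at 158 and 138 CPM (0.870) and UQCRFS1 (the Rieske iron-sulfur protein) at 178 and 165 CPM (0.926). Those above 1 were small subunits, UQCRH at 613 and 697 CPM and UQCR10 at 393 and 446 CPM, both with a ratio of 1.14. UQCRHL, an intronless near copy of UQCRH, had 123 and 211 UMIs (0.672 and 1.15 CPM), and reads of such a copy cannot be told securely from those of UQCRH. Within complex III the mtDNA member at 1.36 thus stood against a nuclear sum of 0.950.

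In complex IV, which reduces oxygen, no measured nuclear member was 25% higher or 20% lower. COX7A2L, which takes part in joining complexes III and IV into supercomplexes, went from 147 to 180 CPM (1.22, 1.20 to 1.24). COX5B, a zinc-binding subunit, went from 396 to 465 CPM (1.17). The lowest were COX4I1 (454 and 389 CPM, 0.858), COX7C (778 and 682 CPM, 0.876) and COX6C (592 and 522 CPM, 0.882). Of the isoform pairs, the ubiquitous forms were the measured ones: COX4I1 as above, COX6A1 at 560 and 554 CPM, COX6B1 at 448 and 423 CPM, COX7A2 at 724 and 766 CPM, COX7B at 416 and 409 CPM and COX8A at 683 and 716 CPM. Their ratios ran from 0.858 to 1.06. The muscle, lung or testis forms were near 0. COX6A2 had no UMI in either library, COX4I2 had 1 and 3, COX7A1 2 and 0, COX8C 5 and 4, and COX6B2 34 and 29. COX7B2, a form known from testis, had 202 and 440 UMIs (1.10 and 2.41 CPM), a ratio of 2.18 (1.84 to 2.59).

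Complex V consists of F1 with the catalytic subunits, a rotating ring of c subunits, a peripheral stalk and small membrane subunits that shape its dimers. The ratios differed between these parts. The 5 F1 genes, ATP5F1A to ATP5F1E, summed to 2966 and 2459 CPM (0.829), with none above 1. The 5 small membrane subunits summed to 3057 and 2496 CPM (0.817), again with none above 1. The 3 c-ring genes, which code for the same mature protein, summed to 1121 and 1255 CPM (1.12) and all lay above 1. The 4 peripheral stalk genes summed to 972 and 945 CPM (0.973). ATP5ME (chr4:672436-674338), the e subunit that joins dimers, went from 525 to 297 CPM, a ratio of 0.566 (0.560 to 0.572). ATP5MD, another small membrane subunit, went from 707 to 534 CPM (0.755). ATP5F1E, the epsilon subunit of F1 and not a catalytic one, went from 1917 to 1501 CPM (0.783) and made up most of the difference of the F1 sum. The catalytic beta subunit ATP5F1B went from 318 to 267 CPM (0.837) and the alpha subunit ATP5F1A from 170 to 165 CPM (0.970). The ratio of ATP5F1A depended on the cells taken: in cells of 10000 to 20000 UMIs its log2 ratio was 0.28. Of the c-ring genes, ATP5MC1 (chr17:48892765-48895871) went from 315 to 408 CPM (1.30, 1.28 to 1.31). ATP5MC2 lay at 367 and 382 CPM (1.04), but at a log2 ratio of -0.0934 in cells of 10000 to 20000 UMIs. ATP5MC3 lay at 440 and 465 CPM (1.06) and the peripheral stalk gene ATP5PF at 343 and 370 CPM (1.08). ATP5MGL, a near copy of ATP5MG, had 126 and 141 UMIs.

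The levels of NDUFB1 and ATP5ME were also read against subunits of the same complex, chosen after their values were seen, so that in cells these proportions restate the ratios above. For each 100 UMIs of NDUFB11 there were 89.7 UMIs of NDUFB1 at D0 and 45.9 at D21. For each 100 UMIs of ATP5MG there were 66.2 of ATP5ME at D0 and 39.7 at D21. In the barcodes with 1 to 100 UMIs these were 104 and 59.1 for NDUFB1, and 70.6 and 44.1 for ATP5ME, so the free RNA showed the same order. Over the 78 measured members the log2 ratio had a Pearson r of 0.04 and a rho of -0.09 with log2 transcript length, beside 0.10 and 0.15 over 6771 other measured genes. Both members under 500 nt lay below 1, ATP5ME (0.566) and ATP5MF (0.844), and only ATP5ME was at least 20% lower. ATP5MF fell in this class by its principal transcript of 305 nt, while its longest had 607 nt. Of the 35 other genes under 500 nt, 40% were at least 20% lower at D21. In the longer classes that share was 9.40% to 16.3%. The part of transcript length in the ratio of ATP5ME was not tested. Genes of 1 library pair share depth and base composition and are not independent.

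The upstream sequences of NDUFB1 and ATP5ME, the nuclear genes with the lowest ratios, and of NDUFA7, with the highest, are shown as examples of the promoters searched for motifs. They are the 250 bases before the RefSeq transcript start, in GRCh38.p14 at chr14:92121707-92121956, chr4:674277-674526 and chr19:8321376-8321625, all on the - strand and written 5′ to 3′. Capitals mark the NRF1 motif GCGCATGC, found once in ATP5ME and in neither NDUFB1 nor NDUFA7.
NDUFB1: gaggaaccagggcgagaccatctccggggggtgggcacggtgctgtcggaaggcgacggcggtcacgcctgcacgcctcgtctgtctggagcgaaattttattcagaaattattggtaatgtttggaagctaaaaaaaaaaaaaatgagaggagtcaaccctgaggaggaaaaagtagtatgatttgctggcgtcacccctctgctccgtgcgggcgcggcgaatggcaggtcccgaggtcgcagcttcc
ATP5ME: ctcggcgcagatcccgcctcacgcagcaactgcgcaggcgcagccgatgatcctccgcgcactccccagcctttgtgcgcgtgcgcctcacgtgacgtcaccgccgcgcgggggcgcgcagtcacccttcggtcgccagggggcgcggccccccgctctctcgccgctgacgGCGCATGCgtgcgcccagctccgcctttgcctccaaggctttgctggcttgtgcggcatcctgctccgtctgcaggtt
NDUFA7: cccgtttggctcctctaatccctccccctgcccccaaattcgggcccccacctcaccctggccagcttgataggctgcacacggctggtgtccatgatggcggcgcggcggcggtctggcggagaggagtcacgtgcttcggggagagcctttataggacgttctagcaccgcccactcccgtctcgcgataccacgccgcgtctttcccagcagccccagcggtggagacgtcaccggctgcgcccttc

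Nuclear respiratory genes are known to carry motifs of NRF1, of ETS factors such as GABPA, and of YY1 near their starts. Windows of 300 nt around the start were available for 68 of the 87 nuclear members (81 windows) and for 27305 genes in all (35116 windows), and both strands were searched. GCGCATGC (NRF1) was in 18.5% of member windows and 3.05% of all. CCGGAAG (ETS) was in 27.2% and 10.3%, and AAGATGGCG (YY1) in 12.3% and 1.75%. TCAAGGTCA (estrogen-related receptors) was in 1 of the 81 member windows and 0.353% of all. The letters were thus more frequent in member windows than in all windows. Members above and below a ratio of 1 had the NRF1 letters in 18.8% and 20% of windows and the ETS letters in 28.1% and 28.9%. YY1 letters were in 9.38% of the windows of members above 1 and 15.6% of those below 1, which are 3 of 32 and 7 of 45 windows. A match is a run of letters and says nothing of binding.

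The share of a cell's UMIs that came from these genes varied from cell to cell, more for mtDNA than for nuclear members. After every cell was thinned to the same number of UMIs, the mtDNA share had a median of 5.75% at D0 and 6.62% at D21, with the central 90% of cells from 3.30% to 9.35% and from 3.71% to 10.7%. The unthinned medians were 5.75% and 6.61%. The nuclear share had medians of 2.56% and 2.43% (unthinned 2.56% and 2.44%). The libraries overlapped in most of their range for both shares. The SD over cells of the mtDNA share was 1.97 percentage points at D0 and 2.22 at D21, where counting alone would give 0.322 and 0.343. For the nuclear share it was 0.491 and 0.507, where counting would give 0.216 and 0.211. Nuclear complexes I and V varied together over cells, with a Pearson r of 0.53 in 7492 cells at D0 and 0.55 in 12487 cells at D21. MT-CO1 and MT-CO3 did so with 0.61 and 0.66. Between the nuclear and the mtDNA share r was -0.22 and -0.10. Shares of the same UMIs of a cell are tied to each other, and these values describe the 2 libraries only.

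**Figure D3:**
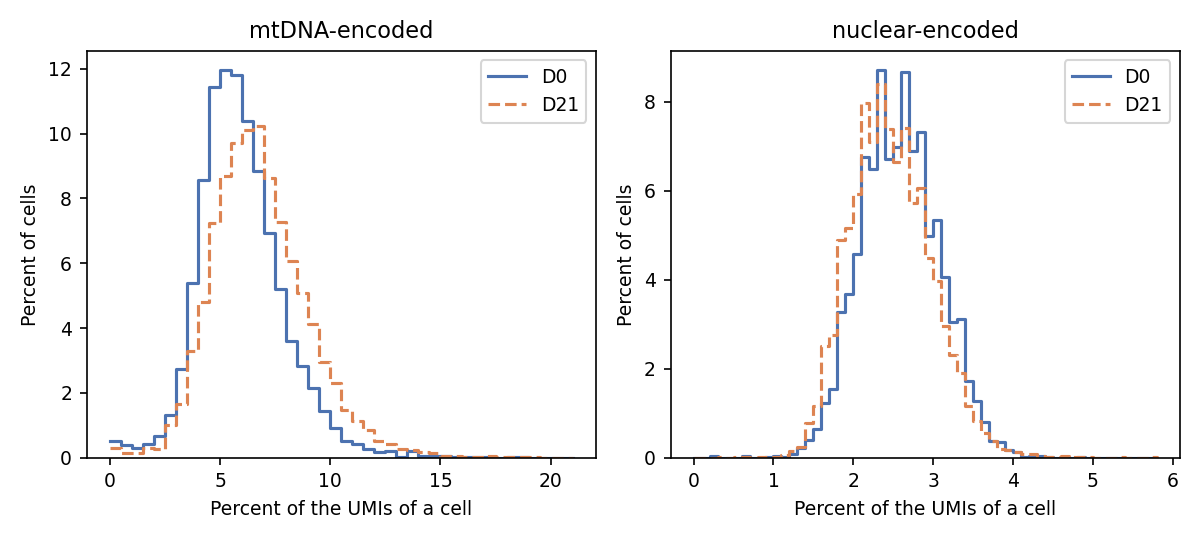
Percent of cells (vertical) by the percent of a cell's UMIs from mtDNA-encoded (left) and nuclear-encoded (right) members after thinning, for D0 (blue, solid) and D21 (orange, dashed). The mtDNA distribution of D21 lies to the right of that of D0 (medians 6.62% and 5.75%), and the nuclear distributions nearly coincide (2.43% and 2.56%).

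The mtDNA share also moved with the depth of a cell, and D21 cells were shallower. From the shallowest to the deepest quartile of cells by UMIs, the summed mtDNA level at D0 was 62392, 60904, 58683 and 55849 CPM. At D21 it was 74948, 70222, 67286 and 59527 CPM, so it was lower in deeper cells of either library. The D21/D0 ratio by quartile was 1.20, 1.15, 1.15 and 1.07, all above 1. The deepest D21 quartile, of median 24107 UMIs, lay close to the third D0 quartile of median 22602 UMIs, at 59527 and 58683 CPM. In cells of 10000 to 20000 UMIs of both libraries the log2 ratio was 0.14, beside 0.17 over all cells. The nuclear ratio by quartile was 0.934, 0.975, 0.964 and 0.948. Cells with more than 20% mitochondrial UMIs had been removed, 11 at D0 and 38 at D21. Without that limit the mtDNA log2 ratio was 0.17, and with a limit of 10% it was 0.13.

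**Figure D4:**
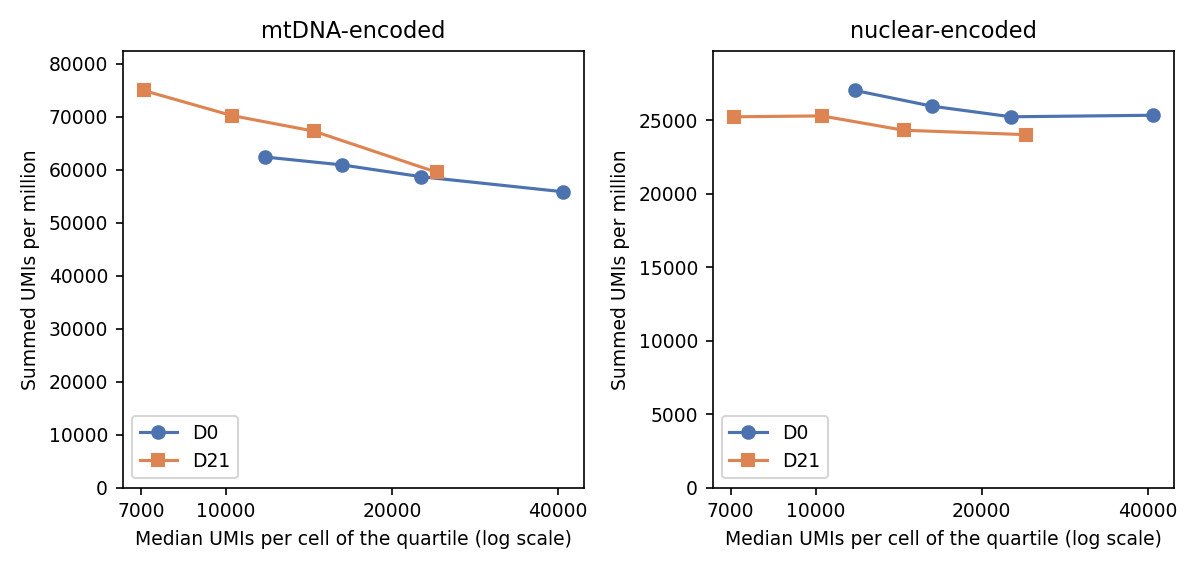
Summed CPM of the mtDNA-encoded (left) and nuclear-encoded (right) members in each quartile of cells by UMIs, against the median UMIs of the quartile (log scale), for D0 (blue circles) and D21 (orange squares). The mtDNA level is lower in deeper cells of both libraries, from 74948 to 59527 at D21 and from 62392 to 55849 at D0, and the D21 line meets the D0 line at its deepest quartile.

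In the free RNA both sums were lower at D21, so the nuclear sum kept the side it had in cells and the mtDNA sum did not. Barcodes with 1 to 100 UMIs held 7217741 UMIs at D0 and 5790037 at D21. Their mtDNA members came to 53687 CPM in the D0 library and 41106 CPM in the D21 library, a ratio of 0.766 (0.762 to 0.770), where the cells gave 1.12. Their nuclear members summed to 30755 and 30183 CPM, a ratio of 0.981 (0.975 to 0.988), where the cells gave 0.955. Every mtDNA gene had a lower ratio in the droplets than in the cells except MT-ND6, with MT-CYB the highest at 0.996 and MT-ATP8 the lowest at 0.394. MT-ND6 lay at 0.862 in the droplets. The higher mtDNA level of D21 was thus seen in cells and not in the free RNA, and the part of free RNA in the levels of cells was not tested.

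**Figure D5:**
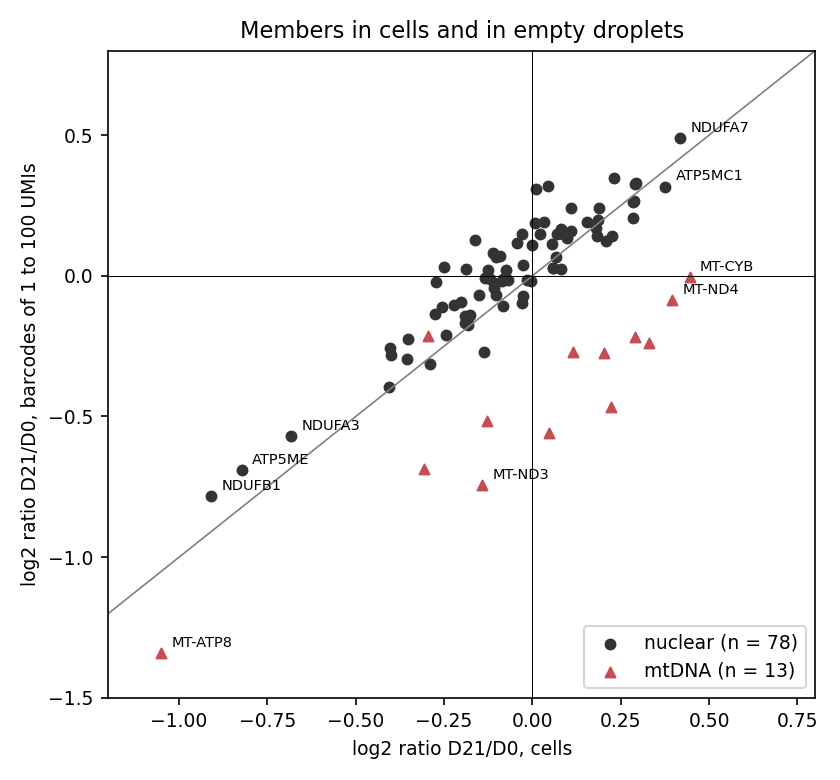
Log2 ratio at D21 over D0 of each measured member in cells (horizontal) and in barcodes of 1 to 100 UMIs (vertical), with the line of equality, for 78 nuclear (black circles) and 13 mtDNA members (red triangles). Nuclear members lie near the line, 61 of the 78 above it, and 12 of the 13 mtDNA members lie below it.

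The composition of the cultures differed, and the ratios were therefore read within like cells. Cells marked by AGR2 and SPANXB1, an endoplasmic reticulum protein and a cancer-testis antigen, were 30.3% of D0 cells and 14.5% of D21 cells. Cells marked by CEMIP, SAA1 and SAA2, a hyaluronan-degrading protein and acute-phase proteins, were 12.6% and 32.1%. A cell was assigned with at least 3 UMIs of 1 set and fewer of the other after thinning, and 7.67% to 13.8% of cells lay next to such a limit. In AGR2/SPANXB1 cells the mtDNA members came to 54590 and 61917 CPM (ratio 1.13), and the nuclear members to 26113 and 26082 CPM (0.999). In CEMIP/SAA cells these were 62746 and 66773 CPM (1.06), and 24756 and 24092 CPM (0.973). Most cells, 56.1% at D0 and 52.0% at D21, had fewer than 3 UMIs of each set. In those cells the mtDNA members came to 58661 and 65089 CPM (1.11), and the nuclear members to 25544 and 24252 CPM (0.949). Within each library the CEMIP/SAA cells had more mtDNA and less nuclear message in sum than the AGR2/SPANXB1 cells, by ratios of 1.15 and 0.948 at D0 and of 1.08 and 0.924 at D21. Not every complex followed its sum: mtDNA complex V had ratios of 0.945 at D0 and 0.865 at D21, and nuclear complex II of 1.17 and 1.07. MT-CYB lay at 1.07 and 0.990. The CEMIP/SAA cells were also deeper, with medians of 23125 against 16725 UMIs at D0 and 13483 against 10089.5 at D21. Of the measured nuclear members 35 of 78 were above 1 in AGR2/SPANXB1 cells (44.9% of all genes measured there) and 36 of 78 in CEMIP/SAA cells (42% of all). Of the mtDNA members 8 and 7 of 13 were above 1.

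The members furthest from 1 kept their side in both kinds of cell. They had been picked by their ratios over all cells, which include these cells, so keeping a side is in part given by that choice. NDUFB1 lay at 333 and 188 CPM (0.564) in AGR2/SPANXB1 cells and at 273 and 156 CPM (0.573) in CEMIP/SAA cells. ATP5ME lay at 493 and 297 CPM (0.602), and at 558 and 302 CPM (0.541). ATP5MC1 lay at 295 and 426 CPM (1.45), and at 303 and 401 CPM (1.33). NDUFA7 had ratios of 1.39 and 1.29 and NDUFA3 of 0.720 and 0.688 in the same order. MT-ATP8 had ratios of 0.510 and 0.473, MT-CYB of 1.39 and 1.29, and MT-ND4 of 1.28 and 1.22. SDHA differed more between the kinds of cell, with 54.5 and 45.1 CPM (0.826, 0.768 to 0.889) in AGR2/SPANXB1 cells and 93.9 and 62.3 CPM (0.663, 0.631 to 0.697) in CEMIP/SAA cells.

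Cells were also divided by their UMIs of 18 G2/M genes, which is no call of cell cycle phase. Cells with at least 10 thinned UMIs, 46.3% of D0 and 50.7% of D21 cells, had 55421 and 61690 CPM of mtDNA message (1.11), and cells with fewer than 2, 25.6% and 24.8% of cells, had 63680 and 74164 CPM (1.16). Their nuclear ratios were 0.940 and 0.991. The G2/M genes themselves summed to 2996 and 2799 CPM (0.934), with 6 of 18 above 1.

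Genes that build or feed the complexes were taken from lists, and they are given beside the 49.4% of all measured genes above 1. Of 12 measured genes of mtDNA maintenance and transcription, 11 were above 1 and their sum lay at 1.12. The exception was TFAM, which packages mtDNA and starts its transcription, with 106 and 101 CPM (0.954). SSBP1, the single-strand binding protein of mtDNA replication, went from 401 to 497 CPM (1.24). TFB2M, a transcription factor of mtDNA, stood at 22.1 and 22.2 CPM, and the polymerase POLRMT was under 20 CPM, at 10.1 and 7.67 CPM (0.756). Of 76 measured mitochondrial ribosomal protein genes, whose products translate the 13 mtDNA mRNAs, 54 were above 1 and the sum lay at 1.10. Cytosolic ribosomal protein genes had 55 of 84 above 1 and a sum at 1.05. Of 15 genes of mitochondrial RNA processing 9 were above 1, with LRPPRC, which stabilizes these mRNAs, at 113 and 133 CPM (1.17) and its partner SLIRP at 461 and 418 CPM (0.905). PNPT1, of the mitochondrial RNA degradosome, went from 35.9 to 47.1 CPM (1.31).

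Assembly factors and carriers lay on both sides of 1. Of the complex I assembly factors 5 of 11 were above 1, with NDUFAF1 at 17.3 and 17.5 CPM and NDUFAF2 at 227 and 205 CPM (0.904). Of those of complexes II to V 15 of 28 were above 1, their sum lay at 0.951 and their ratios ran from 0.579 to 1.29, with the copper chaperone COX17 at 149 and 131 CPM (0.880) and SURF1 at 63.4 and 65.5 CPM (1.03). Of the electron carriers and feeders 5 of 12 were above 1, and these 5 include the complex I subunit gene NDUFAB1. CYCS, cytochrome c, stood at 312 and 311 CPM (0.996). The inhibitor of complex V, ATP5IF1, stood at 452 and 448 CPM (0.992).

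The TCA cycle lay lower, as complex II did. Of 19 measured genes of the TCA cycle and pyruvate dehydrogenase 6 were above 1, the median log2 ratio was -0.09 and the sum lay at 0.904. Fumarase (FH) went from 66.8 to 48.4 CPM (0.725), malate dehydrogenase MDH2 from 253 to 209 CPM (0.829) and citrate synthase CS from 33.1 to 30.9 CPM (0.933). The ADP/ATP carrier genes SLC25A5 (533 and 392 CPM, 0.736), SLC25A6 (402 and 305 CPM, 0.759) and SLC25A4 (79.4 and 67.0 CPM, 0.844) and the phosphate carrier gene SLC25A3 (721 and 605 CPM, 0.839) were below 1, and all were in the next list. That list, of import and outer membrane genes together with these carriers, had 12 of 25 above 1. TOMM20 lay at 300 and 335 CPM (1.12) and VDAC1 at 372 and 353 CPM (0.948). Of the regulators of mitochondrial biogenesis 3 of 6 were above 1, with NRF1 at 38.8 and 43.1 CPM (1.11), MYC at 89.3 CPM in both libraries and ESRRA at 32.4 and 23.1 CPM (0.712).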

How the data were processed

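The libraries were made with the 10x Genomics 3′ kit v3.1 and counted by the authors with Cell Ranger 4 (named in the file headers), and GRCh38 is named in the submitters' processing notes. Of the annotation the sources used here say nothing. The deposited values are UMI counts per gene and barcode, not normalized and with empty droplets included. A filter on cells is not stated in the sources used here.

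Barcodes counted as cells if their UMIs reached 10% of the 99th percentile found in the 5000 deepest barcodes (limits 9008.7 at D0 and 5421.3 at D21), with at least 500 genes and at most 20% mitochondrial UMIs. Of 7503 and 12525 called barcodes 11 and 38 were removed. No doublet caller was run and doublets were kept. Counts were summed over cells and divided by the UMIs of all cells. Ratios have exact conditional Poisson intervals at 95%, for counting error only. UMIs are molecules as captured, so no length scaling was used. Thinning drew UMIs without replacement down to the lower of the limits of both libraries. Motifs were read from RefSeq promoter windows (GRCh38.p14) and gene positions, mitochondrial sequences and transcript lengths from GENCODE 29 on GRCh38. Python 3.11.15, numpy 2.4.6, scipy 1.17.1, pandas 2.3.3 and matplotlib 3.10.9 were used, and the computation was tested on simulated data.

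Genes named were all mtDNA members, the 3 highest and 3 lowest measured members of each nuclear complex, all SDH genes, paralogous isoforms and marked genes of each list. A gene taken by this rule is not reported here. Others (such as CYC1, ATP5F1A and ATP5F1B, SLC25A4, SLC25A6, and the partners NDUFB11 and ATP5MG) were chosen after their values were seen. The members, lists and cell groups were chosen with earlier results of these data known. Alternatives changed the cell limit, the mitochondrial limit, the deepest cells, the denominator, the scaling, the weight of cells, the depth window and the filter on low values. Further alternatives, members with a principal transcript of at least 500 nt and NDUFA4 counted with complex IV, were chosen after seeing the data.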

Additional observations from a re-analysis of the deposited data

Results flagged for a closer look

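The summed nuclear complex III genes lay on opposite sides of 1 in the kinds of cell compared, with a D21/D0 ratio of 1.02 in AGR2/SPANXB1 cells and 0.972 in CEMIP/SAA cells. Of the 9 measured members 2 were above and 7 below 1 in each kind of cell, with median log2 ratios of -0.12 and -0.24, so that only the sums were on opposite sides. There is 1 library per group, and the difference was not tested. In barcodes with 1 to 100 UMIs, which no comparison of cells uses, the nuclear complex I genes had a D21/D0 ratio of 1.04, above the 1.01 of the cells.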

How the results depend on the processing

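The nuclear sum stayed below 1 and the mtDNA sum above 1 under every alternative run. On the log2 scale the nuclear sum (main value -0.0665) was -0.0696 with the UMI minimum halved, -0.0519 without the 6% of cells with most UMIs, -0.0557 without MT- genes and -0.0497 without ribosomal protein genes in the denominator, -0.0635 with median-of-ratios scaling, -0.0635 as a mean of per-cell shares, -0.0958 in cells of 10000 to 20000 UMIs and -0.0498 for members of at least 500 nt. The mtDNA sum (0.17) was 0.18 with the UMI minimum halved and 0.14 with it doubled, 0.17 without and 0.13 with a 10% mitochondrial limit, 0.18 without the deepest 6% of cells, 0.18 without MT- genes and 0.18 without ribosomal protein genes in the denominator, 0.17 with median-of-ratios scaling, 0.20 as a mean of per-cell shares, 0.14 in cells of 10000 to 20000 UMIs and 0.22 for members of at least 500 nt. Nuclear members above 1 were 30 to 34 of 78, and 35 of 86 without a filter. The mtDNA members above 1 were 8 of 13 in all, and 8 of 10 for members of at least 500 nt. Of the 91 measured genes 79 kept their direction under every setting, and the 12 others include NDUFS1, NDUFS3, NDUFA10, NDUFA11 and NDUFC2. In cells of 10000 to 20000 UMIs the log2 ratio turned for nuclear complex I (-0.027), NDUFS5 (-0.0904), NDUFV1 (0.14), SDHD (0.0322), ATP5MC2 (-0.0934), ATP5F1A (0.28) and ATP5PO (0.0411). It also turned as a mean of per-cell shares for ATP5F1A (0.0161) and ATP5PO (0.00376), without the deepest 6% of cells for ATP5PO (0.00429) and without ribosomal protein genes for COX6A1 (0.000501). With NDUFA4 counted in complex IV, chosen after seeing the data, complex I was at -0.00697 and complex IV at 0.00606. The cause was not tested. No paired analysis was possible because each group has 1 library, and for the same reason none could be left out.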
